A study of Mus musculus with 10 samples.

Results

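Steroid hormone receptors and enzymes that activate or inactivate steroids were examined in cultured mouse Wolffian ducts whose hedgehog signalling had been raised or blocked. The set comprised 9 genes, chosen by name: the receptor genes Esr1, Esr2, Pgr, Nr3c1 and Nr3c2 and the enzyme genes Sult1e1, Hsd11b2, Srd5a1 and Srd5a2. Of these, 7 carried a probe set under their symbol, 1 each, among 19505 genes named on the array. Srd5a1 and Srd5a2, the 5-alpha reductases, had no probe set under those names and were not analysed here. Ducts were taken from mouse embryos 16.5 days post-coitum and kept for 72 h at an air-liquid interface. Of the 10 arrays, 4 came from cultures with 0.5 µM SAG, an agonist of the hedgehog transducer Smoothened, 3 from cultures with 25 µM cyclopamine, an inhibitor of Smoothened, and 3 from vehicle cultures in medium. All groups shared the same stage, culture time and array, and the series calls the samples biological replicates. The sources used here do not give sex, mouse strain, the number of ducts per sample or the steroid content of the medium. The protocols name Wolffian ducts and the sample titles pronephros.

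The Wolffian duct is the embryonic tube that androgens preserve in males, where it forms the epididymis, the vas deferens and the seminal vesicle. Steroids cross the membrane and bind nuclear receptors, which then act on DNA: Esr1 and Esr2 are the oestrogen receptors, Pgr the progesterone receptor, Nr3c1 the glucocorticoid receptor and Nr3c2 the mineralocorticoid receptor. Enzymes in the target cell set how much active ligand reaches them. Sult1e1 attaches sulfate to oestrogens, which can then no longer bind their receptors, and Hsd11b2 oxidises active glucocorticoids to inactive forms, which leaves the mineralocorticoid receptor to aldosterone. The comparison of the 3 groups asks whether these genes followed hedgehog activity.

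The 2 compounds moved the pathway as labelled. Gli1, a transcription factor induced by hedgehog signalling, had log2 signals of 13.24 to 13.61 on the SAG arrays, 4.56 to 5.37 on the cyclopamine arrays and 11.43 to 12.63 on the vehicle arrays, with no overlap between groups. Markers of several cell types moved as well. These marker lists were summarised on each array as the mean log2 difference of their genes from the vehicle mean. The duct epithelium list (14 genes measured) was at -1.33 to -0.81 on the SAG arrays, 0.59 to 1.31 on the cyclopamine arrays and -0.43 to 0.53 on the vehicle arrays. The smooth muscle list (8 genes) was at -0.63 to -0.41 with SAG, -3.20 to -2.62 with cyclopamine and -0.30 to 0.19 with vehicle, and the mesenchyme list (11 genes) at 0.24 to 0.44, -1.16 to -1.07 and -0.06 to 0.06. In such bulk samples, fewer cells of a type and less RNA per cell cannot be told apart. The macrophage list (7 genes) was at -0.24 to 0.66 with SAG, 0.40 to 1.48 with cyclopamine and -0.20 to 0.36 with vehicle, and the endothelium list (6 genes) at 0.12 to 0.70, -2.02 to -0.41 and -0.55 to 0.44. The macrophage genes were divided: with cyclopamine against vehicle, 4 had a positive change and 3 a negative one. Cd14, Itgam, Lyz2 and Adgre1 had higher means with cyclopamine, and Csf1r, C1qa and C1qb lower ones. The kidney list (5 genes, 3 of them in the dimmest 25% of probe sets) stayed between -0.11 and 0.23 on all 10 arrays.

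**Figure D1:**
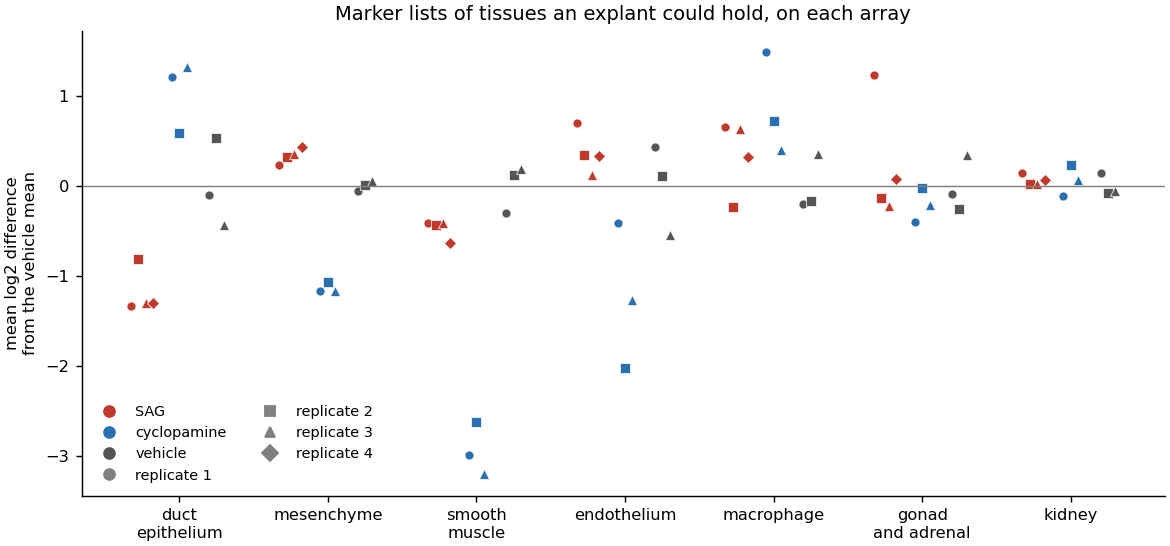
Mean log2 difference from the vehicle mean (vertical axis) of 7 marker lists, with SAG arrays left, cyclopamine arrays in the middle and vehicle arrays right within each list; symbols mark replicate numbers. The duct epithelium list is lowest on the SAG arrays (-1.33 to -0.81), the smooth muscle list lowest on the cyclopamine arrays (-3.20 to -2.62), and SAG replicate 1 lies at 1.23 in the gonad and adrenal list.

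A pair of libraries stood apart in ways that touch steroid genes. SAG replicate 1 had a level of 1.23 in the gonad and adrenal list (11 genes measured, 7 of them in the dimmest 25% of probe sets), against -0.22 to 0.08 on the other SAG arrays, -0.40 to -0.03 on the cyclopamine arrays and -0.25 to 0.35 on the vehicle arrays. Its Cyp17a1 signal, for the enzyme that opens the route to androgens, was 8.03. The other SAG arrays had 3.55 to 3.85, the cyclopamine arrays 3.57 to 4.31 and the vehicle arrays 3.52 to 4.45. Hsd3b1, which converts pregnenolone to progesterone, stood at 10.04 on that array and at 7.95 on vehicle replicate 3, and between 5.59 and 6.64 on the other 8 arrays. Cyp11a1, the side-chain cleavage enzyme that starts steroid synthesis, stood at 9.04 and 8.78 on the same 2 arrays and at 6.32 to 6.92 on the others. Star, which carries cholesterol into mitochondria, was near the bottom of the scale everywhere (4.29 to 4.85). Cyclopamine replicate 2 stood apart from the other cyclopamine arrays, and not for Sult1e1 alone, where it is given separately. On principal component 2, a summary of variation across arrays, it had the lowest value (-51.72), while the other cyclopamine arrays were positive. Its signal was 6.40 for the endothelial gene Cdh5, against 11.99 and 10.29, and 11.99 for Muc1, against 8.69 and 8.82. The endothelial genes were divided on that array. Pecam1, Tek and Tie1 were, like Cdh5, lowest there among the cyclopamine arrays. Kdr and Emcn were highest there, with Emcn at 13.61 against 11.71 and 11.38. Not every gene departed: Crabp1, at 10.65, lay between the other cyclopamine arrays (10.49 and 10.84).

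Of the 7 genes, Sult1e1 and Nr3c1 passed the threshold in at least 1 comparison. With SAG against vehicle, 0 rose, Sult1e1 fell and 6 did not pass (limma, adjusted over all 22206 probe sets, threshold 0.05), where 0.730% of all probe sets were called (0.450% higher and 0.279% lower). Of those calls 61.7% were higher, and 72.4% with arrays centred on their medians. With cyclopamine against vehicle, 0 of the 7 passed in limma, where 5.12% of all probe sets were called (2.17% higher and 2.95% lower). Setting SAG against cyclopamine, Nr3c1 was higher, Sult1e1 was lower and 5 did not pass, where 11.3% of all probe sets were called (5.42% higher and 5.92% lower). Without adjustment, a limma p under 0.05 was found for 3 of the 7 with SAG against vehicle (10.8% of all probe sets), 2 with cyclopamine against vehicle (18.9%) and 2 with SAG against cyclopamine (23.4%). The median log2 change of the 7 genes was -0.13 for SAG against vehicle, -0.53 for cyclopamine against vehicle and 0.17 for SAG against cyclopamine, while the medians over all genes were 0.006, 0.015 and 0.008. Both comparisons with vehicle use the same 3 vehicle arrays. The p-values set differences between group means against the spread within the groups of these 10 samples.

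**Figure D2:**
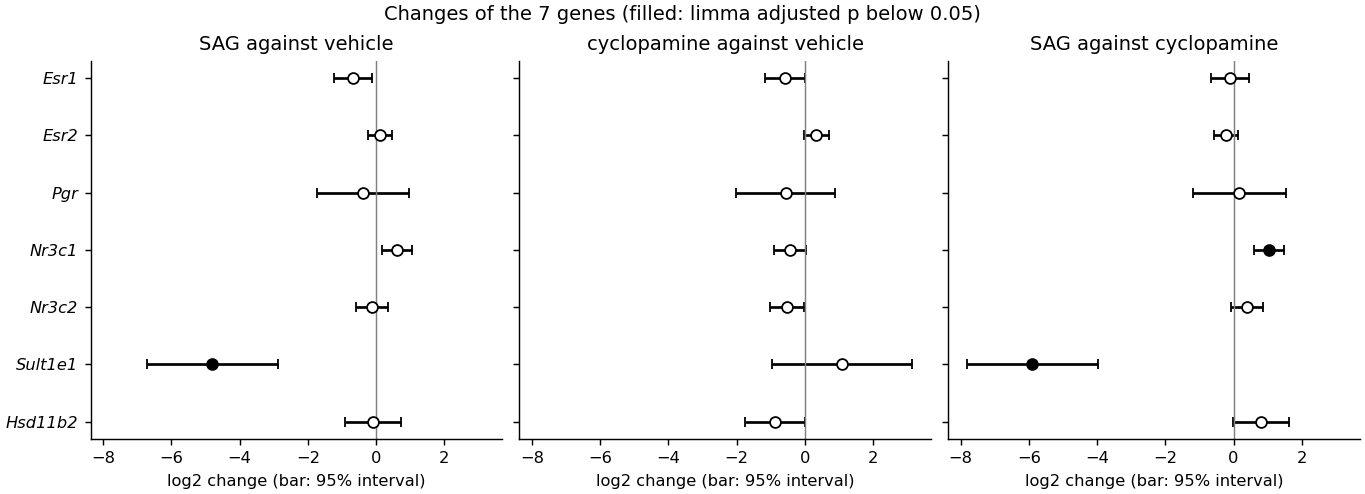
Log2 change (horizontal axis) with its 95% interval for each of the 7 genes in the 3 comparisons; filled points passed the limma test after adjustment. Sult1e1 lies at -4.80 for SAG against vehicle and -5.90 for SAG against cyclopamine, and Nr3c1 at 1.04 for SAG against cyclopamine.

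Among the receptors for female sex steroids, Esr1 had lower means under both compounds than with vehicle. Its log2 signals were 9.74, 8.83, 9.03 and 8.57 on the SAG arrays, 9.17, 9.32 and 8.91 on the cyclopamine arrays, and 9.41, 9.90 and 9.81 on the vehicle arrays. The cyclopamine arrays all lay below the vehicle arrays, while SAG replicate 1 fell inside the vehicle range. The log2 change was -0.67 ± 0.25 (SE) for SAG against vehicle (95% interval -1.22 to -0.11, limma adjusted p = 0.350) and -0.57 ± 0.27 for cyclopamine against vehicle (-1.17 to 0.02, adjusted p = 0.281), so neither passed. Between SAG and cyclopamine the difference was -0.09 (interval -0.65 to 0.46). Esr1 averaged 9.04 ± 0.50 (SD, n = 4) with SAG, 9.13 ± 0.21 (n = 3) with cyclopamine and 9.71 ± 0.26 (n = 3) with vehicle.

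Esr2 was near the bottom of the scale, at 4.84 to 5.13 on the SAG arrays, 4.95 to 5.35 on the cyclopamine arrays and 4.67 to 5.13 on the vehicle arrays. Its mean of 4.99 over all arrays lay at percentile 21.8 of all probe sets, and the files hold no detection call, so expression cannot be told from background signal there. The groups overlapped, and its log2 changes (0.12, 0.34 and -0.22 in the order SAG against vehicle, cyclopamine against vehicle, SAG against cyclopamine) did not pass. Pgr, itself a target of oestrogen in many tissues, varied widely under both compounds. It stood at 9.60, 7.60, 8.03 and 9.24 with SAG, at 7.25, 9.98 and 8.12 with cyclopamine, and at 8.73, 9.30 and 8.99 with vehicle. The treated arrays spread to both sides of the vehicle arrays, with an SD of 0.95 for SAG and 1.39 for cyclopamine, against 0.28 for vehicle. The intervals of its log2 change, -1.75 to 0.97 for SAG against vehicle and -2.01 to 0.90 for cyclopamine against vehicle, both include 0.

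**Figure D3:**
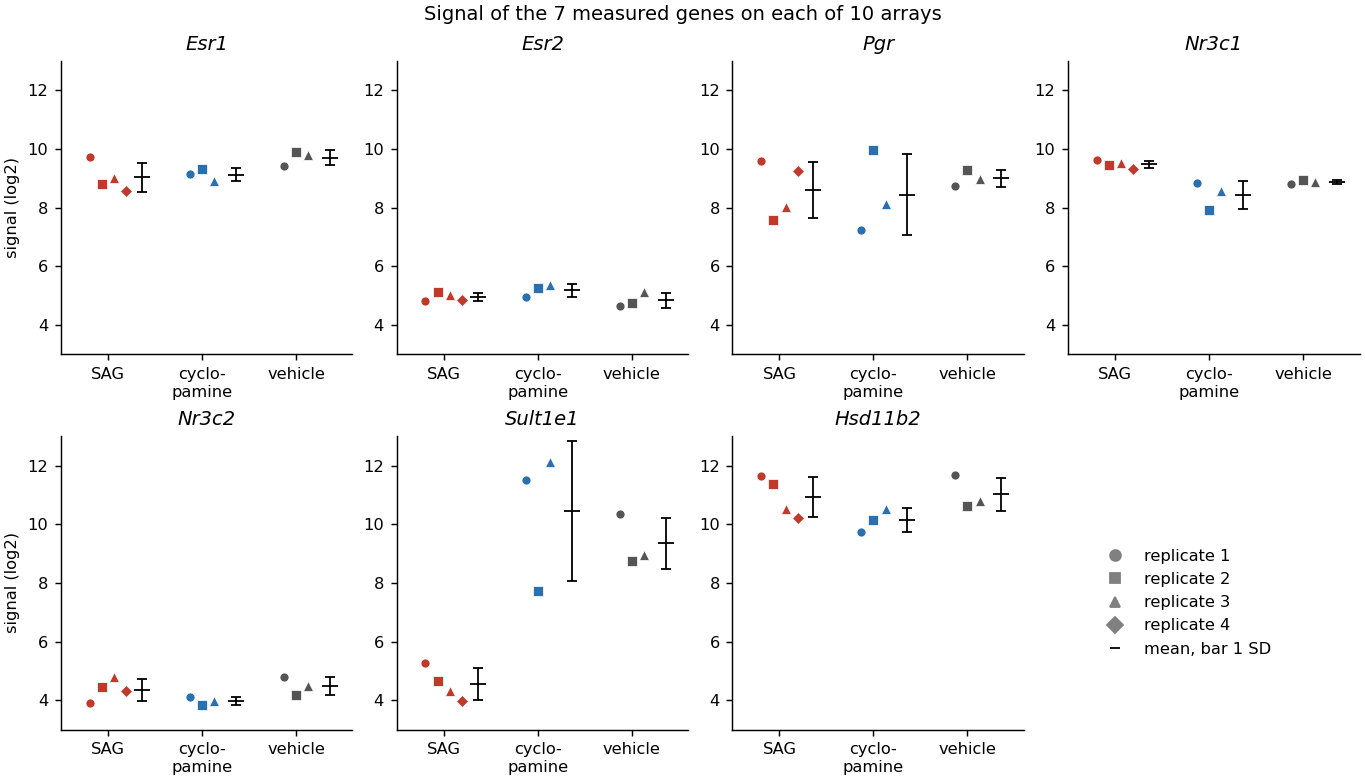
Log2 signal (vertical axis) of the 7 genes on each array, with SAG left, cyclopamine in the middle and vehicle right; symbols mark replicate numbers and bars the mean and 1 SD. The 4 SAG arrays lie below all others for Sult1e1 (3.97 to 5.26) and above all others for Nr3c1 (9.32 to 9.62).

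The glucocorticoid receptor gene Nr3c1 was the one of the 5 member receptors whose group means were ordered with hedgehog activity. It stood at 9.62, 9.47, 9.53 and 9.32 on the SAG arrays, at 8.86, 7.91 and 8.56 on the cyclopamine arrays, and at 8.81, 8.94 and 8.89 on the vehicle arrays. All 4 SAG arrays lay above the other 6, while cyclopamine replicate 1 fell within the vehicle range. SAG exceeded cyclopamine by 1.04 ± 0.20 on the log2 scale, 2.06-fold (95% interval 1.52 to 2.78; limma adjusted p = 0.00604). That call held with each array left out in turn (adjusted p 0.0030 to 0.0189). The steps on either side of vehicle did not pass: 0.61 ± 0.20 for SAG (interval 0.17 to 1.04, adjusted p = 0.258) and -0.44 ± 0.21 for cyclopamine (-0.90 to 0.03, adjusted p = 0.297). Neighbours in the order were thus not separated by the test, while its ends were. The mesenchyme list given above had the same order of groups, and its part in the Nr3c1 difference was not tested. Without both SAG replicate 1 and cyclopamine replicate 2, a choice made after the data were seen, the difference was 0.73 (adjusted p = 0.0134).

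Nr3c2 was dim on every array, at 3.90 to 4.78 with SAG, 3.83 to 4.10 with cyclopamine and 4.18 to 4.80 with vehicle. Its mean of 4.28 lay at percentile 9.4 of all probe sets. The cyclopamine arrays lay just below the vehicle arrays (log2 change -0.53, interval -1.02 to -0.03, limma adjusted p = 0.239), and the SAG arrays overlapped both.

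The oestrogen sulfotransferase gene Sult1e1 was the member with the widest range, and it was low wherever the pathway had been activated. Its log2 signals were 5.26, 4.67, 4.30 and 3.97 on the SAG arrays, 11.50, 7.72 and 12.11 on the cyclopamine arrays, and 10.35, 8.75 and 8.96 on the vehicle arrays. All 4 SAG arrays lay below the other 6. Against vehicle it fell by 4.80 on the log2 scale with SAG (SE 0.87, 28.0-fold, limma adjusted p = 0.0362), and against cyclopamine it fell by 5.90 (SE 0.87, 59.5-fold, adjusted p = 0.00139). The SAG mean of 4.55 was in the dimmest 25% of the array (means under 5.19), where background signal can make folds look smaller. The difference from cyclopamine held with each array left out (-7.26 to -5.06, adjusted p 1.56e-05 to 0.00813). The difference from vehicle kept its size (-5.11 to -4.31) while its adjusted p rose above 0.05 without SAG replicate 1 (0.0533), 2 (0.0815), 3 (0.0961) or 4 (0.108), or without vehicle replicate 1 (0.150), 2 (0.130) or 3 (0.0848). The limma adjusted p stayed under 0.05 without cyclopamine replicate 1 (0.0416), 2 (0.00148) or 3 (0.0237). It also did so in a fit of 2 groups (0.00326) and with array weights (0.00601).

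Cyclopamine itself gave no settled change of Sult1e1 against vehicle, at 1.09 ± 0.93 (interval -0.96 to 3.15, limma adjusted p = 0.581). Cyclopamine replicates 1 and 3 lay above all vehicle arrays and replicate 2 below them all. Without replicate 2 the log2 change was 2.45 (adjusted p = 0.0155). On that array the duct epithelium list was at 0.59, against 1.21 and 1.31 on the other cyclopamine arrays, and the endothelium list at -2.02, against -0.41 and -1.26. The genes of the endothelium list were divided there, with Kdr and Emcn highest on that array. Across groups the epithelium list and Sult1e1 shared the order SAG, vehicle, cyclopamine. The part of tissue makeup in the Sult1e1 difference was not tested. Likeness of pattern was measured as the root mean square difference of log2 values centred on each gene's mean over the 10 arrays, among 18458 named genes. Nearest to Sult1e1 were the beta-defensin gene Defb29 (1.48), Crabp1, a retinoic acid-binding protein (1.58), and the cartilage and tendon gene Cnmd, chondromodulin (1.6), where the median over those genes was 2.92. Crabp1 averaged 7.05 ± 0.19 with SAG (SD, n = 4), 10.66 ± 0.18 with cyclopamine and 9.82 ± 0.20 with vehicle (n = 3 each). The genes nearest to Nr3c1 by that measure were Skil (0.15), which restrains TGF-beta signalling, the transcriptional regulator gene Bach2 (0.17) and Gpt2 (0.17), an alanine aminotransferase, against a median of 0.55.

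Sult1e1 lies beside Sult1d1, another cytosolic sulfotransferase gene, on chromosome 5, with 0 annotated genes between them in GRCm38.p6. Sult1d1 stood at 5.79, 5.44, 4.92 and 5.43 on the SAG arrays, at 9.77, 8.38 and 8.71 on the cyclopamine arrays, and at 5.45, 5.17 and 5.56 on the vehicle arrays. The cyclopamine arrays all lay above the others, and the SAG and vehicle arrays overlapped. It rose by 3.56 ± 0.32 with cyclopamine against vehicle (limma adjusted p = 0.000282) and was lower with SAG than with cyclopamine by the same amount (-3.56 ± 0.30, adjusted p = 5.36e-05). Both calls held with each array left out. The 300 bases around each annotated start are shown because Sult1e1 had the widest range of the members and Sult1d1 is its neighbour. They run 250 bases before and 50 after the start on the minus strand, 5′ to 3′, from RefSeq (GRCm38.p6), at chr5:87591562-87591861 for Sult1e1 and chr5:87568957-87569256 for Sult1d1. Capitals mark matches, on either strand, to the 4 motifs named after the sequences.
Sult1e1: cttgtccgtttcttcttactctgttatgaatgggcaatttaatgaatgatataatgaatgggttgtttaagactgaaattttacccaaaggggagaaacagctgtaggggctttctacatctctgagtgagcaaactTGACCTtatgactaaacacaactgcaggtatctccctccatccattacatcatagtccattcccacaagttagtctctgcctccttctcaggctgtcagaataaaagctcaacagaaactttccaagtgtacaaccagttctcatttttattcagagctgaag
Sult1d1: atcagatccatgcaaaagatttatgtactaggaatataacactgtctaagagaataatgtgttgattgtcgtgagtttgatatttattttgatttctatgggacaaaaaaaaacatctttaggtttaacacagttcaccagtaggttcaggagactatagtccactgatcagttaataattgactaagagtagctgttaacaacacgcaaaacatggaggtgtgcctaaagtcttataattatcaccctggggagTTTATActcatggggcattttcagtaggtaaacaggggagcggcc

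AGGTCA is the half-site of oestrogen receptors and of many other nuclear receptors, and 16.3% of 32851 promoter windows of this length held it on either strand. AGAACA, the half-site of glucocorticoid, mineralocorticoid and progesterone receptors, was held by 19%. GACCACCCA, a site of the hedgehog effectors of the GLI family, was held by 0.253%. TATAAA, the TATA box, was held by 13.6%. The Sult1e1 window held 1 match, to AGGTCA on the opposite strand at position -113 from the start. The Sult1d1 window held 1 match, to TATAAA on the opposite strand at position 5. Of the windows of Esr1 (2 starts), Esr2, Pgr and Nr3c2, that of Pgr held TATAAA on the opposite strand at position -212, and these 5 windows held none of the other 3 motifs. The matches describe these letters in these windows.

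Hsd11b2 and its counterpart Hsd11b1, which regenerates active glucocorticoid, did not pass in any comparison with all 10 arrays. Hsd11b2 stood at 11.65, 11.37, 10.53 and 10.21 with SAG, 9.72, 10.16 and 10.53 with cyclopamine, and 11.67, 10.62 and 10.78 with vehicle. The cyclopamine arrays all lay below the vehicle arrays, and the SAG arrays overlapped both. The log2 change with cyclopamine against vehicle was -0.89 ± 0.40 (interval -1.77 to -0.01, limma adjusted p = 0.261), and SAG differed from vehicle by -0.08 (interval -0.91 to 0.74). The duct epithelium list was higher with cyclopamine than with vehicle, and the mesenchyme and smooth muscle lists were lower. The part of tissue makeup in the Hsd11b2 values was not tested. Hsd11b1, named after its values were seen, stood at 7.51, 6.63, 6.82 and 7.04 with SAG, 5.48, 7.34 and 6.0 with cyclopamine, and 5.55, 5.51 and 5.41 with vehicle. The 4 SAG arrays were above every vehicle array (1.51 ± 0.37, limma adjusted p = 0.113), and the difference did not pass with all 10 arrays. It passed without cyclopamine replicate 2 (adjusted p = 0.00981), an array that enters this comparison only through the shared spread, with array weights (0.0390) and when cyclopamine was kept out altogether (0.0115). Between SAG and cyclopamine the Hsd11b1 difference was 0.73 (adjusted p = 0.268), and 1.26 without cyclopamine replicate 2, where it passed (0.00620). H6pd, which supplies the cofactor for Hsd11b1 in the endoplasmic reticulum, rose with cyclopamine against vehicle (1.64 ± 0.35, limma adjusted p = 0.0235) and was lower with SAG than with cyclopamine (-1.41 ± 0.32, adjusted p = 0.0171). Its call against vehicle ended without cyclopamine replicate 1 or vehicle replicate 1 or 2 (adjusted p 0.0688 to 0.0888) and in a fit of 2 groups (0.0914), and the other without cyclopamine replicate 1 (0.0608).

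**Figure D4:**
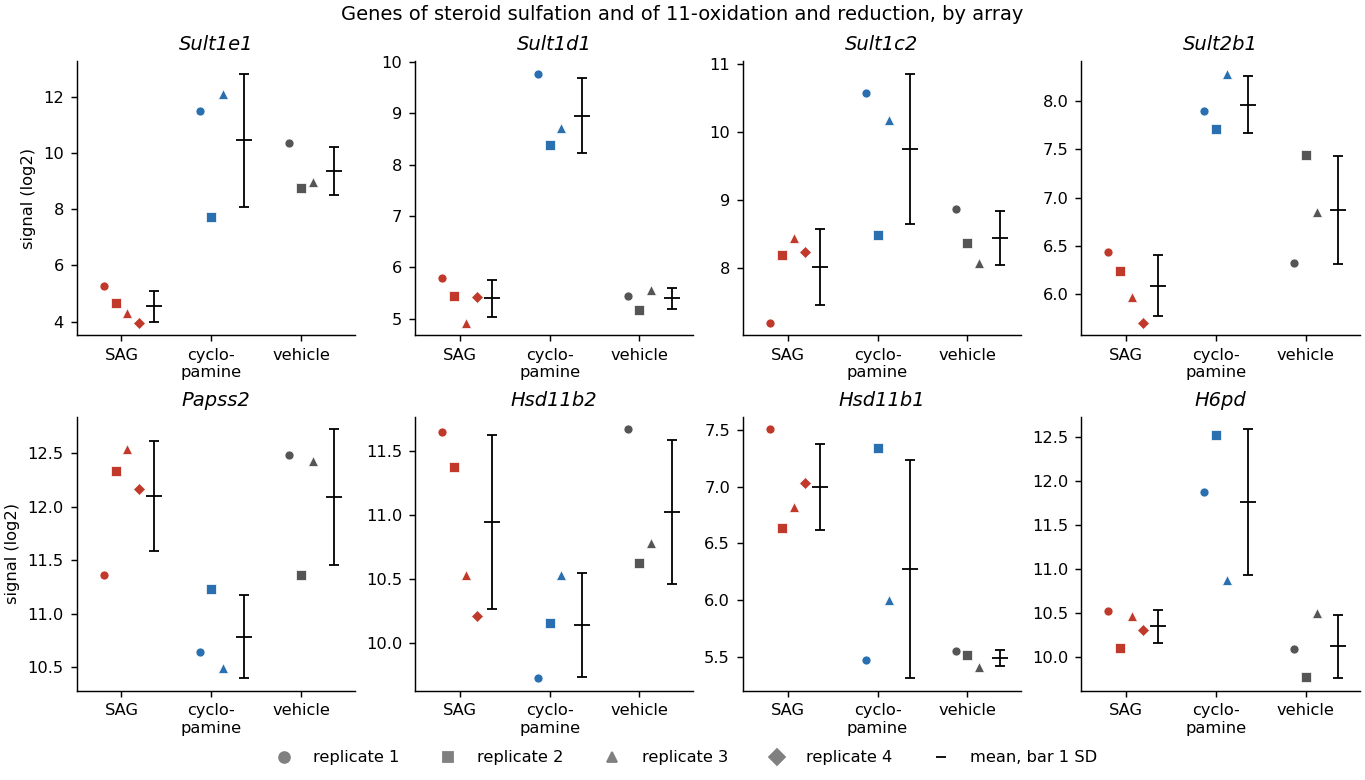
Log2 signal (vertical axis, its own range in each panel) of 8 enzyme genes on each array, with SAG left, cyclopamine in the middle and vehicle right; bars give the mean and 1 SD. Sult1d1 is at 8.38 to 9.77 on the cyclopamine arrays alone, and Hsd11b1 at 6.63 to 7.51 on the SAG arrays, against 5.41 to 5.55 on the vehicle arrays.

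Lists of further enzymes, which leave out Sult1e1 and Hsd11b2, held 0 calls for SAG against vehicle, where 0.730% of all probe sets were called. Of 19 measured genes of the steroid inactivation list, 0 passed in limma with SAG against vehicle (3 at an unadjusted p under 0.05, against 10.8% of all probe sets) and Sult1d1 alone rose with cyclopamine against vehicle, where 2.17% of all probe sets rose. That count of 1 was 2 without SAG replicate 1, 3 without vehicle replicate 2 and 4 without cyclopamine replicate 2. Between SAG and cyclopamine, 3 were lower with SAG, 1 was higher and 15 did not pass, with a median log2 change of -0.11 (0.01 over all genes), where 5.92% of all probe sets were lower and 5.42% higher. Lower with SAG were Sult1d1, Sult2b1, which sulfates cholesterol and related sterols (-1.88 ± 0.27, limma adjusted p = 0.00105), and Sult1c2, a further sulfotransferase gene (-1.74 ± 0.46, adjusted p = 0.0339). Sult2b1 stood at 6.43, 6.24, 5.97 and 5.70 with SAG, against 7.90, 7.71 and 8.29 with cyclopamine and 6.32, 7.44 and 6.85 with vehicle. The cyclopamine arrays all lay above the rest, and vehicle replicate 1 fell within the SAG range. Its difference between cyclopamine and vehicle, 1.09 ± 0.28, missed the threshold (limma adjusted p = 0.0527). It passed with median centring (0.0399), without the dimmest 25% of probe sets (0.0464), with array weights (0.0495), and without vehicle replicate 2 (1.38, 0.0279) or cyclopamine replicate 2 (1.22, 0.0483). Papss2, which makes the sulfate donor for these enzymes, went the other way and was higher with SAG than with cyclopamine (1.31 ± 0.34, adjusted p = 0.0289). The call of Sult2b1 held with each array left out. That of Sult1c2 ended when SAG replicate 1, 2 or 4, cyclopamine replicate 1 or 3, or vehicle replicate 2 was left out (0.0510 to 0.132) and in a fit of 2 groups (0.0669), and that of Papss2 when SAG replicate 2, 3 or 4, or cyclopamine replicate 1 or 3, was left out (0.0681 to 0.107). The count of 4 was 2 without SAG replicate 2 or 4 or without cyclopamine replicate 1 or 3, and 3 or 4 without the others.

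Steroid synthesis genes were called at about the shares of all probe sets. Of 17 measured, 0 passed in limma with SAG against vehicle (2 at an unadjusted p under 0.05, against 10.8% of all probe sets; median log2 change 0.15). With cyclopamine against vehicle H6pd rose and 16 did not pass (0.13), where 5.12% of all probe sets were called. Against cyclopamine, 2 were lower with SAG, 0 were higher and 15 did not pass (0.02), where 11.3% of all probe sets were called. Besides H6pd this was Cyb5a, cytochrome b5, a helper of Cyp17a1 (-0.92 ± 0.20, limma adjusted p = 0.0107), whose call held with each array left out. SAG replicate 1, with its high gonad and adrenal list, had a synthesis list level of 0.86, against -0.04 to 0.10 on the other SAG arrays and -0.19 to 0.25 on the vehicle arrays. Both lists hold Star, Cyp11a1, Hsd3b1, Cyp17a1 and Cyp21a1, so these levels are not independent.

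Among 8 other receptors measured, 0 passed in limma with SAG against vehicle, where 0.730% of all probe sets were called. There were 0 also at an unadjusted p under 0.05, against 10.8% of all probe sets. The membrane oestrogen receptor gene Gper1 alone rose with cyclopamine against vehicle (0.59 ± 0.14, limma adjusted p = 0.0429), where 5.12% of all probe sets were called. Against cyclopamine, Gper1 (-0.61 ± 0.14, adjusted p = 0.0143) and Paqr7, a membrane progestin receptor (-1.24 ± 0.34, adjusted p = 0.0398), were lower with SAG, and 6 did not pass, where 11.3% of all probe sets were called. Gper1 was dim, at 5.62 to 5.75 with SAG, 6.12 to 6.58 with cyclopamine and 5.61 to 5.80 with vehicle. Its call against vehicle ended with any array but cyclopamine replicate 3 left out (adjusted p 0.0518 to 0.133), with quantile normalization (0.0620), in a fit of 2 groups (0.131) and with an intensity-dependent prior (0.0713). That against SAG ended without cyclopamine replicate 1 (0.0575). The Paqr7 call ended with any array but cyclopamine replicate 3 or vehicle replicate 1 left out (0.0501 to 0.0924) and in a fit of 2 groups (0.0714), and without cyclopamine replicate 2 its log2 change was -0.75. Of 14 receptor chaperones and coregulators, 0 passed in limma in any of the 3 comparisons, where 0.730%, 5.12% and 11.3% of all probe sets were called. At an unadjusted p under 0.05 there were 0, 1 and 1 in the order given above, against 10.8%, 18.9% and 23.4% of all probe sets. Those with the smallest unadjusted p were the receptor co-chaperone genes Fkbp4 (-0.52 for SAG against cyclopamine, limma adjusted p = 0.109) and Stip1 (-0.43 for cyclopamine against vehicle, limma adjusted p = 0.180). Fkbp4 passed without cyclopamine replicate 2 (-0.75, limma adjusted p = 0.00850) and with array weights (-0.60, 0.0408).

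Genes known to respond to these receptors were read against the shares of all probe sets called, 0.730% for SAG against vehicle, 5.12% for cyclopamine against vehicle and 11.3% for SAG against cyclopamine (5.92% lower). Of 16 glucocorticoid targets, 0 passed in limma with SAG against vehicle (1 at an unadjusted p under 0.05, against 10.8% of all probe sets; median log2 change -0.20). With cyclopamine against vehicle 0 passed in limma (6 at an unadjusted p under 0.05, against 18.9% of all probe sets; median 0.38), and 2 passed without cyclopamine replicate 2. Between SAG and cyclopamine, 6 were lower with SAG than with cyclopamine, 0 were higher and 10 did not pass (-0.59, against 0.01 over all genes). This was the opposite direction to the difference in Nr3c1 itself. The duct epithelium list shared the order SAG, vehicle, cyclopamine with this list, and its part in these differences was not tested. Among the 6 were the metallothionein genes Mt1 (-0.75 ± 0.14, limma adjusted p = 0.00546) and Mt2 (-1.30 ± 0.31, 0.0198), Zbtb16, a zinc finger repressor (-1.05 ± 0.25, 0.0210), and Dusp1, a MAP kinase phosphatase (-1.69 ± 0.42, 0.0256). Zbtb16 stood at 9.19, 8.90, 9.39 and 9.90 with SAG, at 10.40, 9.97 and 10.82 with cyclopamine, and at 10.34, 10.55 and 10.14 with vehicle. Fkbp5, a widely used readout of receptor activity, stood at 15.04 to 15.21 with SAG, 14.47 to 15.16 with cyclopamine and 15.21 to 15.23 with vehicle, and did not pass; it was named after its values were seen. The Mt1 call held with each array left out. The Mt2 call ended when SAG replicate 2 or 4, or cyclopamine replicate 2 or 3, was left out (0.0549 to 0.0677), that of Zbtb16 when SAG replicate 1 or 2, or cyclopamine replicate 1 or 3, was left out (0.0513 to 0.0878), and that of Dusp1 when SAG replicate 2 (0.0641) or 4 (0.0670) was, and in a fit of 2 groups (0.0550). The log2 change of Dusp1 was -1.13 when cyclopamine replicate 2 was left out. The count of 6 was 1, 2 and 3 without SAG replicate 2, SAG replicate 4 and cyclopamine replicate 1, and 4 or 5 without any of the other arrays.

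Of 7 mineralocorticoid targets, mostly genes of sodium transport, 4 were lower with SAG than with cyclopamine and 3 did not pass (median log2 change -0.81), where 5.92% of all probe sets were lower. They were Atp1b1, the beta subunit of the sodium pump (-1.88 ± 0.23, limma adjusted p = 0.000399), Nedd4l, a ubiquitin ligase that removes the epithelial sodium channel (-0.81 ± 0.15, 0.00617), Scnn1a, a subunit of that channel (-0.92 ± 0.23, 0.0245), and the kinase gene Sgk1 (-1.39 ± 0.37, 0.0353), also counted among the glucocorticoid targets. Atp1b1 rose with cyclopamine against vehicle (1.17 ± 0.24, adjusted p = 0.0220), the others did not pass there (median 0.39), and 0 of 7 passed in limma with SAG against vehicle (4 at an unadjusted p under 0.05, against 10.8% of all probe sets; median -0.53). Atp1b1 stood at 11.62, 12.21, 12.24 and 12.53 with SAG, at 14.18, 14.18 and 13.72 with cyclopamine, and at 13.11, 12.95 and 12.53 with vehicle. The duct epithelium list had the same order of groups, and its part in these differences was not tested. The Atp1b1 and Nedd4l calls between SAG and cyclopamine held with each array left out. The Atp1b1 call against vehicle ended without cyclopamine replicate 1 or vehicle replicate 2 or 3 (adjusted p 0.0597 to 0.0773), and that of Scnn1a when SAG replicate 1 or 4, or cyclopamine replicate 1 or 3, was left out (0.0503 to 0.0925). That of Sgk1 ended without SAG replicate 2, 3 or 4, cyclopamine replicate 1 or 2, or vehicle replicate 2 (0.0529 to 0.0891), and in a fit of 2 groups (0.0723). Cyclopamine replicate 2 had Sgk1 at 12.56, and without it the log2 change was -0.88. The count of 4 was 2 without SAG replicate 4 or cyclopamine replicate 1, and 3 or 4 without the others.

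**Figure D5:**
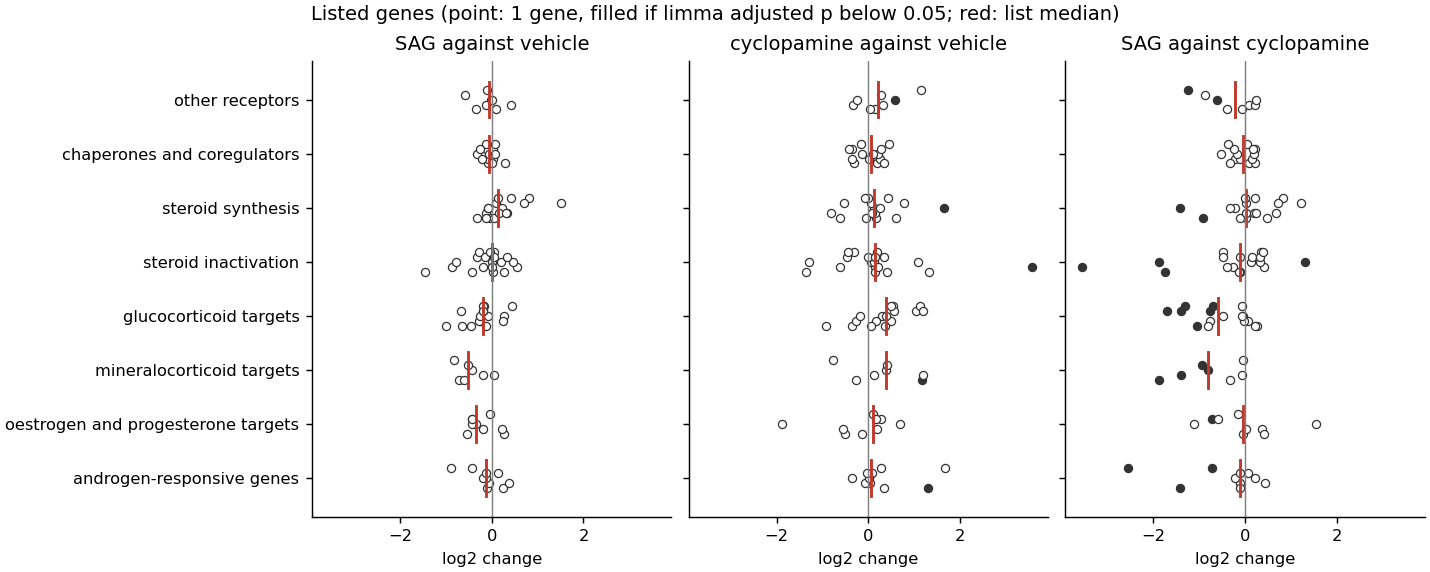
Log2 change (horizontal axis) of every measured gene of 8 lists in the 3 comparisons; filled points passed the limma test and red bars give list medians. No filled point appears for SAG against vehicle, and the glucocorticoid and mineralocorticoid targets have medians of -0.59 and -0.81 for SAG against cyclopamine.

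Targets of the sex steroid receptors gave 0 calls for SAG against vehicle, where 0.730% of all probe sets were called. Of 9 genes responsive to oestrogen or progesterone in the female tract, 0 passed in limma in either comparison with vehicle (1 in each at an unadjusted p under 0.05, against 10.8% and 18.9% of all probe sets; median log2 changes -0.33 with SAG and 0.11 with cyclopamine). Without cyclopamine replicate 2, 1 passed with cyclopamine against vehicle. Igf1, the insulin-like growth factor gene, was lower with SAG than with cyclopamine (-0.71 ± 0.19, limma adjusted p = 0.0309; median of the list -0.03), where 5.92% of all probe sets were lower. Of 10 androgen-responsive genes of the male tract, 5 had means below the lower quartile. With SAG against vehicle 0 passed in limma (1 at an unadjusted p under 0.05, median -0.12), and Adam7, a membrane protein of the epididymis, rose with cyclopamine against vehicle (1.30 ± 0.31, adjusted p = 0.0367; median 0.06), where 2.17% of all probe sets rose. Between SAG and cyclopamine, 3 were lower with SAG and 7 did not pass (median -0.11), where 5.92% of all probe sets were lower. These were Adam7 (-1.41 ± 0.29, adjusted p = 0.00872), the serine protease gene Tmprss2 (-2.56 ± 0.61, 0.0201) and Igf1, which is in both lists. Adam7 stood at 5.42, 4.97, 5.36 and 5.38 with SAG, at 7.57, 6.18 and 6.34 with cyclopamine, and at 5.47, 5.47 and 5.25 with vehicle. Its call between SAG and cyclopamine held with each array left out, while that against vehicle ended without SAG replicate 3 or 4 or any vehicle array (adjusted p 0.0547 to 0.1085) and in a fit of 2 groups (0.114), and without cyclopamine replicate 1 its log2 change was 0.86. The Igf1 call was lost when SAG replicate 1, 2 or 4, or cyclopamine replicate 1 or 3, was left out (0.0533 to 0.120). That of Tmprss2 was lost when SAG replicate 1, 3 or 4, or cyclopamine replicate 2, was (0.0509 to 0.0612).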

How the data were processed

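Affymetrix arrays measured RNA of cultured Wolffian ducts in 10 samples. Per the labels' protocols, column-extracted, DNase-treated RNA with an integrity number of at least 7 was labelled (100 ng, GeneChip WT Plus). The deposited values are log2 signals for 22206 probe sets; the base was inferred from their range (2.95 to 18.7), and near-equal upper quartiles (10.7 to 10.8) show arrays already on one scale. The sources used here do not give summarization, normalization, build or annotation. Depth has no counterpart on arrays, and their number limits the precision.

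GEO's platform table named 19572 probe sets with 1 symbol, 0 with several and left 2634 unnamed; all 19572 identifiers matched RefSeq (GRCm38.p6). A gene was represented by its probe set of highest mean. With limma 3.58.1 in R 4.3.3, a mean per group was fitted to all 10 arrays (7 residual degrees of freedom, eBayes), and two-sided p-values of all probe sets were adjusted together by Benjamini-Hochberg, with 0.05 as the threshold and no filter. Intervals are 95% and errors moderated standard errors. The script was tested on simulated data.

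The members and lists were chosen with earlier results of these data known. Of each steroid list, up to 4 genes that passed in any comparison were named by smallest p, or the 2 nearest where none passed. Hsd11b1 and Fkbp5, named outside that rule, are marked in the text. Cyp17a1, Hsd3b1, Cyp11a1, Star, Muc1 and the cell type markers were also named outside it, after their values were seen. Lists are described by counts and medians. Motifs were searched in RefSeq promoter windows of 6 of 8 genes looked up. Replicate numbers were shared between groups, but only 1 of 9 same-numbered pairs had deviations correlated above 0.1 (range -0.19 to 0.24), so they do not pair samples. Alternatives were further quantile normalization, median centring, a filter on the dimmest 25% of probe sets, fits of 2 groups, an intensity-dependent prior, weights per array, a block for the replicate number, other thresholds and leaving out each array.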

Additional observations from a re-analysis of the deposited data

Results flagged for a closer look

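Within the 4 SAG arrays, the gap of 1 array to its nearest neighbour was divided by the range of the 4. That ratio exceeded Dixon's 95% critical value for 6 of the named genes. Chance alone flags about 1 in 20 such groups for genes named without regard to their values. The 6 cannot be set against that rate, because Cyp17a1, Hsd3b1 and Cyp11a1 were named after their values were seen. SAG replicate 1 was high for Cyp17a1 (8.03), Hsd3b1 (10.04) and Cyp11a1 (9.04), and low for Gper1 (5.62). SAG replicate 3 was high for Paqr7 (8.80), and SAG replicate 2 low for Adam7 (4.97). None of the 7 members had such an array. The groups of 3 arrays were not examined in this way.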

How the results depend on the processing

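Sult1e1 and Nr3c1 between SAG and cyclopamine kept their calls under every alternative run at the 0.05 threshold, and with all arrays they passed 0.01 too. The count of members past the threshold for SAG against vehicle (1, Sult1e1) was 0 with the replicate block and 0 at an adjusted p under 0.01, and 0 to 1 with 1 array left out. Because the numbers do not pair the samples, the block (Sult1e1 at -4.61, adjusted p = 0.105) is given here only. It also ended the calls of Gper1, H6pd and Adam7 for cyclopamine against vehicle, and of Gper1, Paqr7, H6pd, Papss2, Sult1c2, Mt2, Dusp1, Scnn1a, Sgk1 and Igf1 for SAG against cyclopamine (adjusted p 0.0523 to 0.127). For cyclopamine against vehicle the count of 0 members was 0 to 1 with 1 array left out and 1 without both SAG replicate 1 and cyclopamine replicate 2, a choice made after the data were seen. Probe sets called for SAG against vehicle (162) numbered 296 with 2 groups in the fit, 313 with array weights, 32 with the replicate block, 316 and 36 at adjusted p under 0.1 and 0.01, 45 to 339 with 1 array left out and 311 without both arrays. For cyclopamine against vehicle (1136) they numbered 566 with 2 groups, 653 with the block, 1857 and 354 at the other thresholds, 485 to 1471 with 1 array left out and 1591 without both arrays. For SAG against cyclopamine (2518) they numbered 1613 with the block and 1303 at 0.01. The share of higher calls for SAG against vehicle was 61.7%, and 72.4% with arrays centred on the median, which moved the median of all probe sets to 0.10. Changes near 0 that did not pass turned sign. Hsd11b2 for SAG against vehicle (-0.08) was 0.007 with median centring, 0.16 with the block and -0.32 to 0.24 with 1 array left out. Nr3c2 for SAG against vehicle (-0.13) was -0.29 to 0.021 with 1 array left out and 0.021 without both arrays. Pgr for cyclopamine against vehicle (-0.56) was -1.32 to 0.043 with 1 array left out. For SAG against cyclopamine, Pgr (0.17) was -0.039 with the block and -0.43 to 0.93 with 1 array left out, and Esr1 (-0.09) was 0.064 with the block and -0.32 to 0.064. The causes were not tested. No member had several probe sets, so averaging over them was not run. Nr3c2 and Esr2 lie so low on the scale that a fall would be hard to see.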
